A study of Rattus norvegicus with 6 samples.

Results

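Vertebrate genomes carry methyl groups on the cytosines of CG dinucleotides, and this DNA methylation is kept up and laid down by different enzymes. Dnmt1, the maintenance methyltransferase, copies the pattern of the parent strand onto newly made DNA during replication, and Uhrf1 recognises hemimethylated DNA behind the replication fork and brings Dnmt1 to it. Dnmt3a and Dnmt3b are the de novo methyltransferases, which can methylate DNA that carried no mark before. In beta cells, DNA methylation takes part in holding genes of other cell types and of immature islets silent.

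The 4 genes of this system, Dnmt1 (ENSRNOG00000039859), Uhrf1 (ENSRNOG00000048411), Dnmt3a (ENSRNOG00000026649) and Dnmt3b (ENSRNOG00000010625), were examined in BRIN-BD11 cells with and without the class I histone deacetylase inhibitor MS-275 (entinostat). They were chosen by their identifiers, with their control against MS-275 values in these same libraries already known, so their values are a description. The calls that the fit over all genes made for them are given only beside the share of all genes called, and support nothing. All 4 are among the 22250 genes of the count tables, and all 4 are among the 12596 genes with enough counts for a fit. Genes are listed by Ensembl identifier, 0 of which has a symbol in the RefSeq table at hand, so the names given to the 4 identifiers come with the list of members and were not checked against an annotation.

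BRIN-BD11 is an insulin-secreting line made by fusing RINm5F cells with islet cells of a New England Deaconess Hospital (NEDH) rat, and every library came from this 1 line at passage 25. The 3 control libraries are labelled WT with no inhibitor, and the 3 treated libraries received 5 µM MS-275 for 16 h, added 24 h after seeding. MS-275 was dissolved in 0.1% DMSO per the labels. A lower DMSO concentration is named for the controls in the paper. Whether the replicates were separate cultures on separate days is not stated, so the spread between them may be partly technical. The identity of the cells was not checked here against beta cell markers, since no marker could be matched to an identifier. The libraries held between 5230555 and 9172422 counts on genes. Control replicate 1 and MS-275 replicate 3 lay nearest to the other group on the first principal component, at -44.2 and 44.7, against -58.2 to -57.0 for the other two controls and 55.0 to 59.8 for the other two treated libraries. The log2 fold changes and calls of the 4 genes were also computed without these libraries, whereas the ratios, shares, ranks and profiles were computed over all 6 libraries only.

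The stretches of DNA around the transcription starts of the genes show what the sequence itself holds. The RefSeq promoter table, built on assembly GRCr8 and not on the Rnor_6.0 assembly of the counts, covers 3 of the 4 genes with windows from 250 bases before to 50 bases after a start, and has no entry for Dnmt3b. The windows of Dnmt1 and Dnmt3a and the CG-richest of the 3 windows of Uhrf1 are shown, these being the 3 genes covered. Dnmt1 lies at chr8:27762792-27763091 on the minus strand, Uhrf1 at chr9:1222936-1223235 on the plus strand and Dnmt3a at chr6:32598352-32598651 on the plus strand. Capitals mark matches on either strand to 4 forms of the E2F site (TTTCCCGC, TTTGGCGC, TTTCGCGC and TTTGCCGC), to the GC box GGGCGG and to the CCAAT box.
Dnmt1: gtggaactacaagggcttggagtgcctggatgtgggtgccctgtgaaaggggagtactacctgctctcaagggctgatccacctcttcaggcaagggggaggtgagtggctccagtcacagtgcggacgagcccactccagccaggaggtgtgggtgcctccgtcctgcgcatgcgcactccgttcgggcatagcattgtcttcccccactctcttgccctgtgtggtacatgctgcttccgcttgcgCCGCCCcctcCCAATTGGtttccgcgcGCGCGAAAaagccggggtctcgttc
Uhrf1: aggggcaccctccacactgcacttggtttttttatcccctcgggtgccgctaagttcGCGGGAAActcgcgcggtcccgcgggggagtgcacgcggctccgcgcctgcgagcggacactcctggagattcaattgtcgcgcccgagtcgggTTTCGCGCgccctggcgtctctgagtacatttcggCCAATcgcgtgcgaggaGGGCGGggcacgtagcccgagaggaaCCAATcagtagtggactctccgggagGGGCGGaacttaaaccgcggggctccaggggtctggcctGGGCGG
Dnmt3a: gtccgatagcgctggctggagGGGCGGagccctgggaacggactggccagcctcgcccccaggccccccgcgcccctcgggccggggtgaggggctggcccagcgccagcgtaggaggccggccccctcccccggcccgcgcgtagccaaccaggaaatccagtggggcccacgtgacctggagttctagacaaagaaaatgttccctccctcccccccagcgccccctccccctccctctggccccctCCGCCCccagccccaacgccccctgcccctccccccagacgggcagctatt

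The Dnmt1 window held 1 E2F form, TTTCGCGC on the opposite strand from base 26 after the start, together with 1 GC box and 2 CCAAT matches that overlap in one palindrome. The Uhrf1 window held 2 E2F forms, TTTCCCGC on the opposite strand from base -193 and TTTCGCGC from base -99, with 3 GC boxes and 2 CCAAT boxes. E2F factors are known as activators of genes needed for DNA replication. The Dnmt3a window held 0 E2F forms, 2 GC boxes and 0 CCAAT boxes. Over the 33469 windows of the table, 2.14% held at least 1 of the 4 E2F forms, 33.1% a GC box and 37.5% a CCAAT box. Each E2F form and the GC box contain a CG, and these shares are not matched for the number of CG in a window. They therefore do not show how rare such a match is among windows as rich in CG. The other 2 windows of Uhrf1 held 0 E2F forms. The number of CG dinucleotides was 17 in the Dnmt1 window, 35 in the Uhrf1 window and 21 in the Dnmt3a window, against a median of 7 over all windows. The Uhrf1 window was picked for its high number, which also favours E2F matches, and the other 2 windows of Uhrf1 had 8 and 13. A match describes letters only, and binding was not measured in these libraries. Whether a match has any part in the level of a gene was not tested.

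Levels are given in CPM, the counts of a gene brought to the same library total after edgeR's TMM scaling. They are compared between libraries for 1 gene and not between genes, since no transcript length on the assembly of the counts was used here. Dnmt1, the maintenance enzyme, had 519, 592 and 553 CPM in control replicates 1, 2 and 3 and 284, 307 and 347 CPM in MS-275 replicates 1, 2 and 3. Every treated library was below every control, and the treated library nearest to the controls was replicate 3. The means were 555 ± 36.4 CPM (SD, n = 3) and 313 ± 31.8 CPM (SD, n = 3), and the fitted log2 fold change was -0.82 with a standard error of 0.09. The level relative to the other genes was thus 56.4% of that in the controls, and the amount of RNA per cell was not measured. Dnmt1 had between 1539 and 4818 counts in a library, so counting alone gives it a coefficient of variation of 1.57% in the controls and 2.20% in the treated libraries, below the 6.56% and 10.2% seen between replicates.

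Uhrf1, the partner that brings Dnmt1 to replicated DNA, had 204, 231 and 221 CPM in the controls and 167, 174 and 166 CPM with MS-275. Its groups did not overlap either, and the treated libraries lay closer together than the controls. The means were 219 ± 14.1 CPM (SD, n = 3) and 169 ± 4.49 CPM (SD, n = 3). The log2 fold change was -0.38 with a standard error of 0.08, which leaves 77.1% of the control level. MS-275 replicate 3, which stood nearest to the controls for Dnmt1, did not stand toward the controls for Uhrf1.

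Dnmt3a, one of the de novo enzymes, had 117, 105 and 90.8 CPM in the controls, against 81.5, 83.4 and 94.7 CPM with MS-275. The groups overlapped, since MS-275 replicate 3 was above control replicate 3. The means were 104 ± 12.9 CPM (SD, n = 3) and 86.5 ± 7.15 CPM (SD, n = 3), with a log2 fold change of -0.27 and a standard error of 0.10. The spread between controls, a coefficient of variation of 12.3%, was larger than the 3.61% that counting alone gives.

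Dnmt3b, the other de novo enzyme, was the only one of the 4 with a higher level in the treated cells. It had 5.16, 3.69 and 2.77 CPM in the controls, against 9.42, 10.4 and 8.94 CPM in treated cells. Each treated library was above each control, and the highest control was replicate 1. The means were 3.87 ± 1.21 CPM (SD, n = 3) and 9.59 ± 0.741 CPM (SD, n = 3). The log2 fold change was 1.27 with a standard error of 0.24, or 2.41-fold. These values rest on few reads, with counts of 41, 30 and 16 in the controls and of 51, 53 and 80 in the treated libraries. Brought to the CPM scale, the exact 95% Poisson intervals of these counts, which cover counting error only, ran from 3.70 to 6.998 CPM in control replicate 1, the highest control, and from 7.015 to 12.4 CPM in MS-275 replicate 1. The interval of MS-275 replicate 3, the lowest treated library, ran from 7.09 to 11.1 CPM. The intervals of the highest control and of these treated libraries thus lay next to each other without overlapping. The coefficient of variation was 31.1% in the controls, against 18.6% from counting alone. In the treated libraries it was 7.73%, against 12.8%. The intervals therefore leave out part of the spread between controls.

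**Figure D1:**
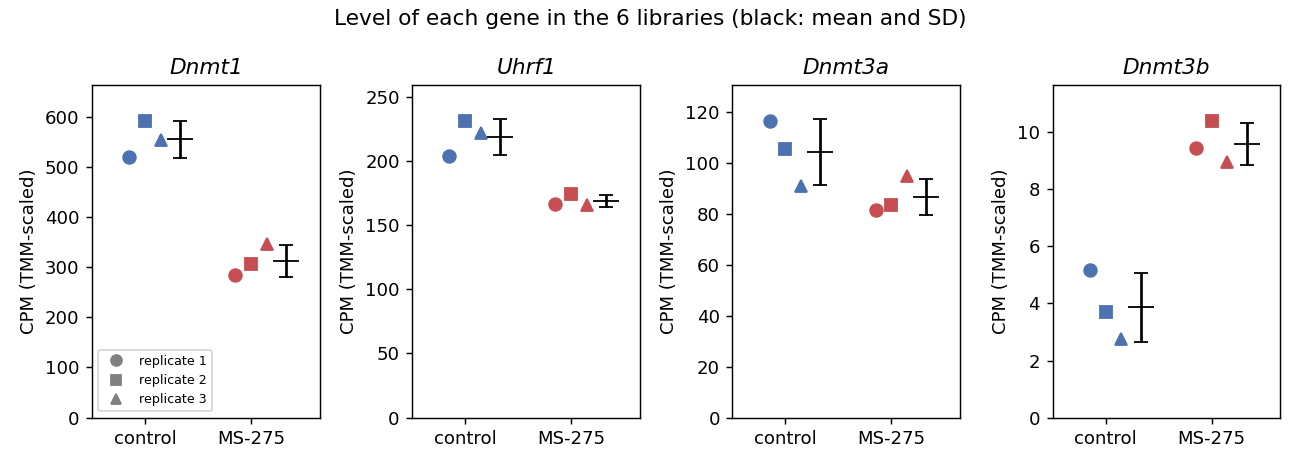
The level of each gene in CPM after TMM scaling (vertical axis, from 0) is plotted for the 3 control and the 3 MS-275-treated libraries, with 1 marker shape per replicate number and the mean with its SD in black. Dnmt1 and Uhrf1 were lower in every treated library, Dnmt3b was higher in every treated library, and the values of Dnmt3a overlapped.

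Most tested genes of these cells were called with MS-275, and the 4 genes have to be read beside that. At an adjusted p under 0.05 in the quasi-likelihood test of edgeR (Benjamini-Hochberg over all genes tested), 32.1% of the tested genes were called higher and 31.5% lower. By that rule 3 of the 4 genes (Dnmt1, Uhrf1 and Dnmt3a) were called lower and 1 (Dnmt3b) higher. The values of the groups did not overlap and were lower with MS-275 in 34.0% of the tested genes and in 2 of the 4, and they were higher in 34.1% of the tested genes and in 1 of the 4. These counts were in view when the genes were chosen, and nothing is read from them. The call of Dnmt3a was lost in 5 of 12 alternative settings, among them the fits without control replicate 1 (log2 fold change -0.17), control replicate 2 (-0.26), MS-275 replicate 1 (-0.22) and MS-275 replicate 2 (-0.23), and upper-quartile scaling (-0.18). The calls of the other 3 genes held in all 12 at this p alone, and of the 4 only Dnmt3b also had a log2 fold change beyond 1 in size.

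Among the 12596 tested genes, 8.83% had a log2 fold change below that of Dnmt1, 27.1% one below that of Uhrf1 and 33.6% one below that of Dnmt3a. For Dnmt3b, 10.6% of the tested genes had a higher one. On the CPM scale, the control mean of Dnmt1 exceeded 98.6% of the tested genes and its treated mean 96.1%, so it was among the most abundantly counted genes in both groups. The control mean of Dnmt3b exceeded 12.5% of them and its treated mean 19.8%, so it was near the low end of the tested genes with and without MS-275. For Uhrf1 these shares were 93.1% and 90.2%, and for Dnmt3a 80.4% and 77.2%. These ranks take no account of transcript length.

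**Figure D2:**
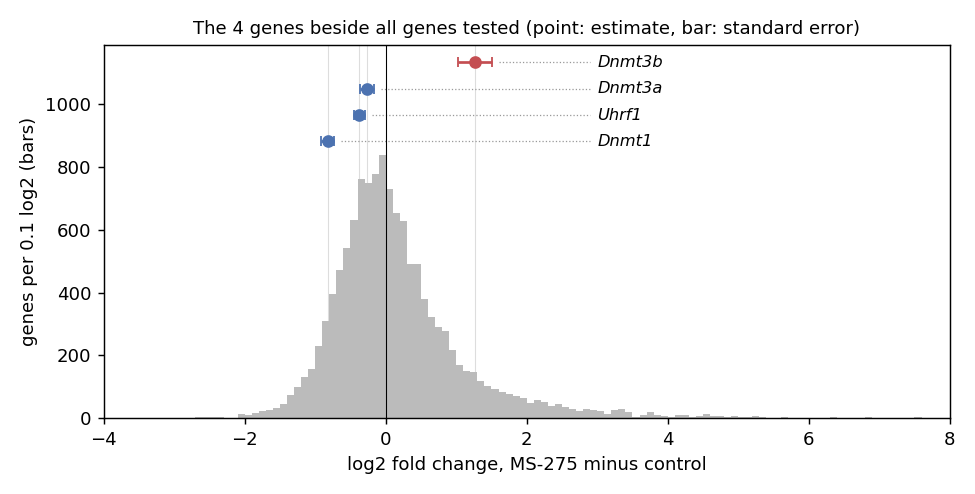
Grey bars give the number of tested genes in each step of 0.1 of the log2 fold change (MS-275 minus control, horizontal axis), and the points above them give the 4 genes with their standard errors at arbitrary heights. Uhrf1 at -0.38 and Dnmt3a at -0.27 lay within the bulk of the genes, Dnmt1 at -0.82 toward the lower side and Dnmt3b at 1.27 toward the upper side.

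The maintenance genes were next set beside the de novo genes. The mean log2 fold change of Dnmt1 and Uhrf1 minus that of Dnmt3a and Dnmt3b was -1.10. The de novo mean joined Dnmt3a at -0.27 with Dnmt3b at 1.27, so the size of this difference rested largely on Dnmt3b. Dnmt3b had between 16 and 80 counts in a library. The mean log2 CPM of the maintenance pair minus that of the de novo pair was also taken within each library. It was 3.73, 4.23 and 4.46 in the controls, against 2.97, 2.97 and 3.04 with MS-275, with no overlap between the groups. Among single tested genes, 34.0% were lower and 34.1% higher without overlap. The share for other groupings of genes was not computed, so nothing is read from the lack of overlap. Control replicate 1 stood closest to the treated libraries in this within-library difference. Without it the difference was -1.32, and without control replicate 3 it was -0.97.

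The 2 genes of each pair did not differ by the same amount, however. The ratio of the counts of a gene to those of another within a library needs no scaling between libraries, and gene length cancels when the ratio is compared between libraries. There were 2.55, 2.56 and 2.50 counts of Dnmt1 for each count of Uhrf1 in the controls, but 1.71, 1.77 and 2.10 with MS-275. The controls lay close together on this ratio and above every treated library, and the log2 ratio differed by -0.46 with a standard error of 0.09 from the spread between replicates. Within the maintenance pair, Dnmt1 was thus further below its control level than Uhrf1. How often the groups do not overlap for ratios of other gene pairs was not computed, here and for the ratios below.

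Within the de novo pair, there were 22.6, 28.5 and 32.8 counts of Dnmt3a for each count of Dnmt3b in the controls and 8.65, 8.02 and 10.6 in the treated libraries. The groups did not overlap, and the log2 ratio differed by -1.62 with a standard error of 0.20. The fitted changes of the pair had opposite signs, with Dnmt3a at 83.1% of the control level and Dnmt3b at 2.41-fold. The groups overlapped for Dnmt3a alone, however, so the difference in this ratio rested largely on Dnmt3b.

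Across the pairs, Uhrf1 and Dnmt3a were the neighbours that could not be separated. Their count ratio was 1.75, 2.20 and 2.44 in the controls and 2.05, 2.08 and 1.75 in the treated libraries, so the groups overlapped and the log2 ratio differed by -0.11 with a standard error of 0.16. The ratio of Dnmt1 to Dnmt3a was between 4.46 and 6.09 in the controls and between 3.49 and 3.68 in the treated libraries, a log2 difference of -0.57 with a standard error of 0.14. The ratio of Dnmt1 to Dnmt3b went from between 101 and 200 in the controls to between 29.5 and 38.8. The order of the fitted changes was Dnmt1, Uhrf1, Dnmt3a and Dnmt3b, and the difference between Uhrf1 and Dnmt3a was smaller than its spread between replicates.

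**Figure D3:**
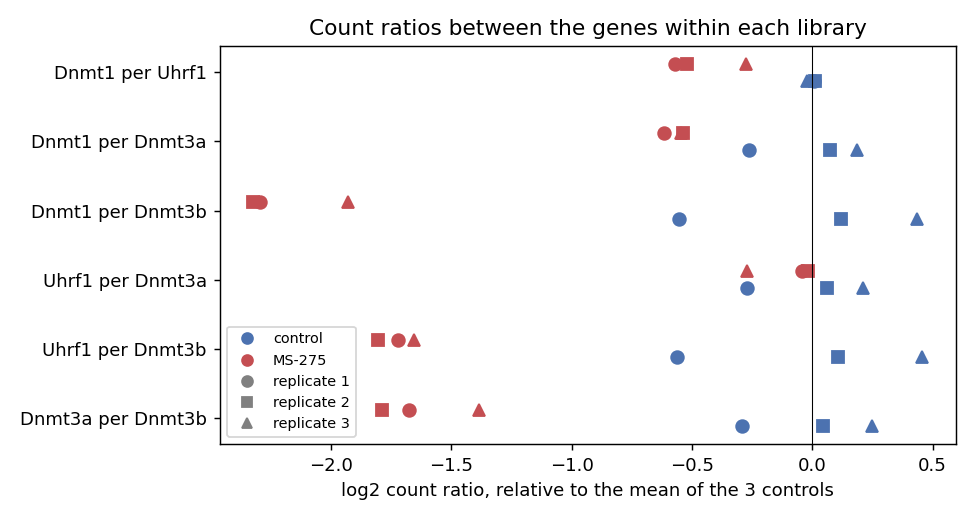
For each pair of genes, the log2 ratio of their counts within a library is plotted relative to the mean of the 3 controls (horizontal axis), with blue for control, red for MS-275 and 1 marker shape per replicate number. The groups overlapped only for Uhrf1 per Dnmt3a, and the ratios to Dnmt3b were the farthest from 0. The ratios share genes and are not independent, and the share of other gene pairs without overlap was not computed.

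The counts on the 4 genes together shifted toward the less abundantly counted ones. Dnmt1 took 62.9% ± 1.22 (SD, n = 3) of them without and 54.1% ± 2.0 (SD, n = 3) with MS-275. The share of Uhrf1 went from 24.8% ± 0.705 (SD, n = 3) to 29.3% ± 2.11 (SD, n = 3), although its own level was lower, and that of Dnmt3a from 11.8% ± 1.74 (SD, n = 3) to 15.0% ± 0.432 (SD, n = 3). The share of Dnmt3b went from 0.442% ± 0.151 (SD, n = 3) to 1.67% ± 0.190 (SD, n = 3). The sum of the 4 genes was 882 ± 45.4 CPM (SD, n = 3) without and 578 ± 37.3 CPM (SD, n = 3) with MS-275, between 542 and 616 CPM in the treated libraries against 845 to 932 in the controls. In bulk RNA, fewer cells that express these genes and less of their RNA per cell cannot be told apart.

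The libraries nearest to the other group also stood nearest to it for some of the 4 genes. Control replicate 1 had the lowest control level of Dnmt1 and Uhrf1 and the highest control level of Dnmt3b, and MS-275 replicate 3 had the highest treated level of Dnmt1 and the lowest treated level of Dnmt3b. With both left out, which leaves 2 libraries a group, the log2 fold changes were -0.94 for Dnmt1, -0.40 for Uhrf1, -0.24 for Dnmt3a and 1.60 for Dnmt3b. Both were left out for standing nearest to the other group, so the larger changes of Dnmt1 and Dnmt3b followed from that choice. The part of these libraries' displacement in the results was not tested beyond these fits.

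**Figure D4:**
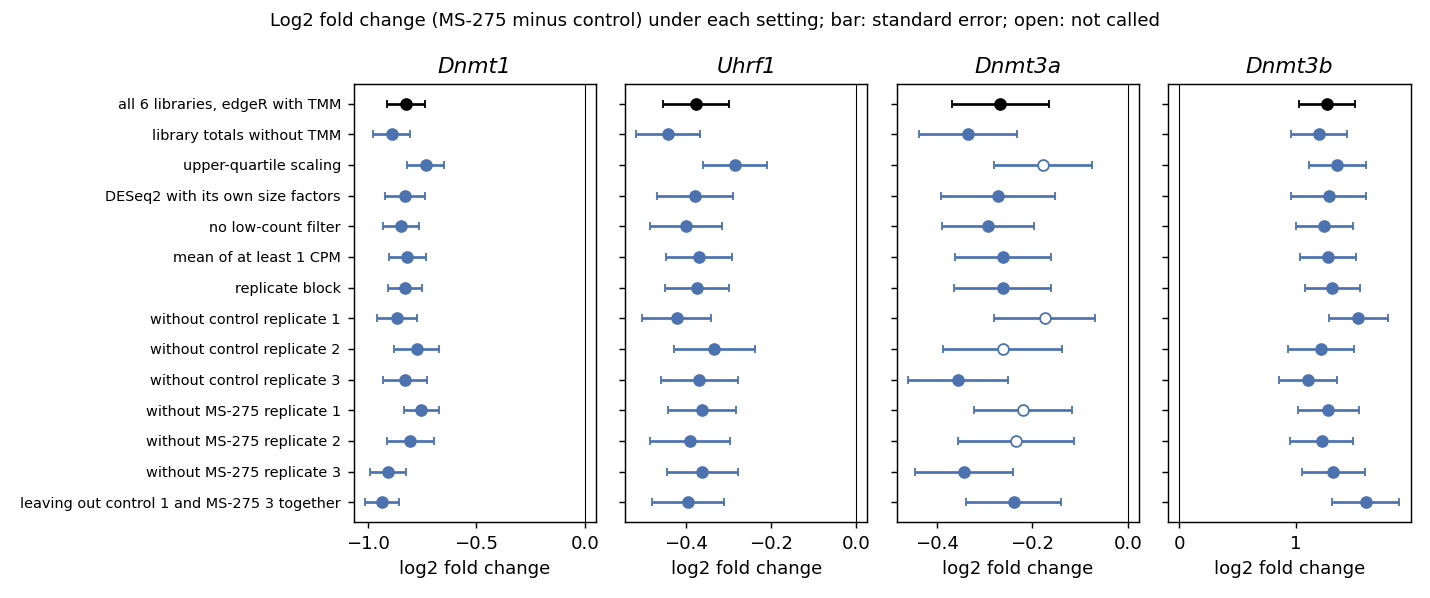
The log2 fold change of each gene (MS-275 minus control, horizontal axis, a separate scale in each panel) is given under each setting, with its standard error as a bar and an open circle where the gene was not called at an adjusted p under 0.05. Every estimate kept its direction, and the open circles are all in the panel of Dnmt3a.

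The genes whose profiles were most like those of the 4 were looked up over all genes. Profiles were compared over the 6 libraries as log2 ratios to the control mean, among 12593 genes whose mean reached 1 CPM, by the root mean square difference. Within 0.2 of the profile lay 1182 genes for Dnmt1 (9.39%), 2612 for Uhrf1 (20.7%), 1964 for Dnmt3a (15.6%) and 84 for Dnmt3b (0.667%). These numbers are not comparable between the 4 genes. The limit is the same for genes of unlike spread, and the control levels of Dnmt3b have a coefficient of variation of 31.1%. The number of tested genes with a like log2 fold change also differs. The step of 0.1 that holds Uhrf1 has 763 genes, and that of Dnmt3b has 146. The nearest to Dnmt1 was ENSRNOG00000012638, at 0.03, with 79.9 CPM in the controls and 44.1 with MS-275, and the nearest to Uhrf1 was ENSRNOG00000020142, at 0.01, with 133 and 103 CPM. The nearest to Dnmt3b were ENSRNOG00000043219, at 0.05, with 12.7 and 29.7 CPM, and ENSRNOG00000013067, at 0.06, with 28.0 and 69.6 CPM. The files pair none of these identifiers with a name, and the other nearest genes are not listed.

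Pseudogenes and overlapping genes can limit how surely reads are given to these genes, and how alike the sequences are was not measured. RefSeq lists 3 pseudogenes of Dnmt3a and 2 of Dnmt3b in the rat assembly GRCr8, and 1 of the latter lies across the span of Dnmt3b itself. The span of Uhrf1 overlaps that of the protein-coding gene Arrdc5, and that of Dnmt3a overlaps a long noncoding RNA gene. Strandedness of the counting is not given in the sources used here, and whether reads of these neighbours entered the counts was not tested.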

How the data were processed

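RNA of 3 control and 3 MS-275-treated BRIN-BD11 libraries was analysed. The authors deposited raw counts per Ensembl gene, made after a contaminant screen (bowtie2) and STAR alignment to Rnor_6.0. The submitters' processing notes also name Trimmomatic, and the annotation release and strandedness are not given in the sources used here. The counter is given as featureCounts, but the closing lines of each table are those htseq-count writes. Such lines name no gene and were dropped. Counts on genes were between 29.2% and 31.4% of the sum of the gene counts and these closing lines. The authors' table of their own comparison (group means, fold changes and p-values) was not used.

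In edgeR 4.0.16 (R 4.3.3), genes that passed filterByExpr were scaled with TMM and fitted with robust quasi-likelihood tests and no block, with Benjamini-Hochberg adjustment over 12596 genes. A standard error is the log2 fold change divided by the square root of F. Profiles used log2(CPM + 0.1). The scripts were tested on simulated data in which few genes were changed, as many higher as lower. That setting covers neither so many called genes as here nor changed genes with counts as low as those of Dnmt3b in the controls. Counting intervals are exact Poisson intervals, and reads without molecular identifiers are not independent molecules.

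The members and lists were chosen with earlier results of these data known. The rule named the 4 members, the genes with the nearest profiles and members of pathway lists and marker lists. Those lists (partners of maintenance and of de novo methylation, demethylation, methyl-CpG readers, methyl donor supply, replication, mitosis, germ line, imprinted genes and cell type markers) need gene symbols, 0 of which could be matched, and were not run. Protein sequences were not used here. Alternatives were library totals, upper-quartile scaling, DESeq2 1.42.0, other low-count filters, the replicate block, a fold change threshold and each library left out. Leaving out control replicate 1 and MS-275 replicate 3 together was added after the data were seen.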

Additional observations from a re-analysis of the deposited data

How the results depend on the processing

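Over 12 alternatives the log2 fold change was between -0.91 and -0.73 for Dnmt1, between -0.44 and -0.29 for Uhrf1, between -0.36 and -0.17 for Dnmt3a and between 1.10 and 1.54 for Dnmt3b, and the maintenance minus de novo difference was between -1.32 and -0.97. With the later fit that left out 2 libraries together, there were 121 values under an alternative. Of these, 116 stayed within the spread between replicates or within 1.5 times the count, and 5 moved. Of the log2 fold changes and differences 0 changed direction, and the rest are counts of genes, which have no direction. Upper-quartile scaling gave Uhrf1 -0.29, since it shifts the median of all genes from -0.01 to 0.08, and without control replicate 1 and MS-275 replicate 3 Dnmt3b was at 1.60. A call that also needs a log2 fold change of size 1 or more left 1754 higher and 650 lower genes in place of 4039 and 3966, and 0 of the 4 genes lower in place of 3. With each library left out, between 2 and 3 of the 4 genes were called lower, 1 higher, and between 3615 and 4093 of all genes higher and 3401 and 3952 lower.

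Whether libraries with the same number were paired is not known here. Their deviations from the group means correlated at 0.16, -0.02 and 0.13, which with 3 libraries a group cannot settle it. On the first and on the second principal component, replicates 1, 2 and 3 ran in the same order in both groups. On the first they lay at -44.2, -57.0 and -58.2 in the controls and at 59.8, 55.0 and 44.7 with MS-275. On the second they lay at 12.2, -3.08 and -5.27 in the controls and at 16.6, -2.46 and -17.9 with MS-275. Control replicate 1 and MS-275 replicate 3, the libraries nearest to the other group, stood at ends of this order. With the replicate block the values were -0.83 for Dnmt1, -0.37 for Uhrf1, -0.26 for Dnmt3a and 1.31 for Dnmt3b, with the same 3 lower and 1 higher calls. Depth limits Dnmt3b, which had at most 80 counts in a library, and with it the maintenance minus de novo difference. Alternatives for the pathway lists were not run.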
